A study of Mus musculus with 30 samples.

Results

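CD206hi MHCIIlo tumour-associated macrophages were compared with CD206neg MHCIIlo tumour-associated macrophages, using 10 of the 30 RNA-seq libraries of the study, 5 of each population. The libraries were taken by their sample labels, and the comparison was made over all 11052 genes that passed a filter on low counts, with the tumour as a block. Both populations, called CD206hi and CD206neg from here on, were sorted by flow cytometry from the same 5 mammary adenocarcinomas of mice of the strain FVB/N-Tg(MMTVPyVT)634Mul/J. Cells of both groups carried CD45, the leukocyte surface antigen, and F4/80, the mouse macrophage antigen, and were low for MHC class II on their labels. CD206hi cells were CD206-positive and CD206neg cells were not. Another macrophage population, CD206pos MHCIIhi (called CD206pos, 5 libraries), entered the fit as well, so that the 15 libraries shared 1 estimate of the spread. All animals carried the polyoma virus middle T transgene under the mouse mammary tumour virus promoter, which drives tumours of the mammary epithelium, and every tumour had reached 750 mm3. The labels name no treatment and no age. The tumours are numbered 5, 6, 8, 10 and 11, and each gave 1 library to each population, so n = 5 in every group.

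CD206 is the mannose receptor, an endocytic lectin encoded by Mrc1 that takes up glycoproteins and is widely used to mark macrophages of an alternatively activated or tissue-resident kind. Macrophages that carry CD206 together with the hyaluronan receptor LYVE1 lie along blood vessels in many mouse tissues, mammary tumours included, and are known for scavenging, for chemokine release and for contact with the vessel wall. CD206-negative macrophages of a tumour are a mixed group by definition, since the absence of 1 marker gathers them. A sort of this kind gives bulk RNA, in which fewer cells of a type and less RNA per cell cannot be told apart.

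The 10 libraries held 7158694 to 9892472 counts each, and 11891 to 13025 genes were detected per library. At this depth 3 counts correspond to between 0.222 and 0.614 scaled CPM, that is, CPM computed with library sizes multiplied by their TMM factors, the unit of all levels given here. For 2 CD206neg libraries, those of tumours 6 and 8, the column name in the matrix speaks of high class II, whereas the sample label says low. The labels were followed, and results are given with and without these libraries where that matters. All 12 genes of a list of macrophage identity were detected in both populations: the list summed to a median of 30000 scaled CPM (range 21260 to 63600) in CD206hi and of 32380 (21960 to 62180) in CD206neg. Of the 12 genes 3, Aif1, Tyrobp and Ptprc, were called lower in CD206hi (25%, against 7.32% of all genes), and none higher. The calls of Tyrobp and Ptprc each held in 6 of 15 fits without 1 library or tumour, and Aif1 was not followed in this way.

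Library values are given in the order of tumours 5, 6, 8, 10 and 11. Adjusted p-values come from the quasi-likelihood test of edgeR, adjusted over all 11052 genes by the Benjamini-Hochberg method, fold changes are CD206hi over CD206neg, and their error is the SE. A gene is said to have risen or fallen in CD206hi where its adjusted p was under 0.05. Each gene so described below kept that call when any 1 library or any 1 tumour was left out and when the CD206neg libraries of tumours 6 and 8 were left out, unless its sentence says otherwise. The exceptions that were not followed in this way are Cd209c, Cd5 and the glycolysis genes named without values.

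Across the transcriptome 1791 of 11052 genes (16.2%) differed, 982 of them higher in CD206hi (8.89%) and 809 lower (7.32%). Counts of called list members given below are to be read against these shares. A change of at least 2-fold was fitted for 983 genes (8.89%), 599 higher and 384 lower, and for 1143 genes (10.3%) the values of the populations did not overlap. Large changes lay mostly on the higher side: 148 genes were at least 8-fold higher in CD206hi and 43 at least 8-fold lower. Without the CD206neg libraries of tumours 6 and 8 the number of calls was 1787. It ranged from 985 to 2136 when single libraries or tumours were left out, with the fewest calls without tumour 11, and it was 1110 without the tumour block.

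The sort was checked by its gate genes. Mrc1 (Entrez 17533, chromosome 2, 14229414 to 14332023, GRCm38.p6) had 1065, 771, 799, 635 and 1633 scaled CPM in CD206hi, against 61.8, 36.0, 89.3, 46.7 and 123 in CD206neg. Every CD206hi library lay above every CD206neg library, and the CD206neg libraries still held Mrc1 reads well above the level of 3 counts. This is a 14.0-fold difference (log2 fold change 3.81 ± 0.24, adjusted p = 6.14e-08). The pan-leukocyte gate gene Ptprc, which encodes CD45, had 211 to 323 scaled CPM in CD206hi and 316 to 401 in CD206neg (log2 fold change -0.48 ± 0.16, adjusted p = 0.0444), a call that held in 6 of 15 fits without 1 library or tumour. Adgre1, which encodes F4/80, had 328 to 915 scaled CPM in CD206hi and 369 to 835 in CD206neg, with an adjusted p of 0.568.

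Lyve1 and Cbr2 were higher in CD206hi than in CD206neg, and Dcstamp was lower. Lyve1 (Entrez 114332, chromosome 7, 110850607 to 110862953), the hyaluronan receptor of lymphatic endothelium and of perivascular macrophages, had 423, 256, 50.9, 155 and 379 scaled CPM in CD206hi, against 0.519, 0, 0.37, 0.36 and 1.39 in CD206neg. The CD206neg values sat near the level of a few counts, and the lowest CD206hi library, that of tumour 8, was still far above them. The log2 fold change was 8.98 ± 0.50 (adjusted p = 2.7e-08), and 8.24 without the CD206neg library of tumour 5. Cbr2 (Entrez 12409, chromosome 11, 120729485 to 120732025), a carbonyl reductase of lung and of tissue macrophages, had 1345, 2748, 1701, 1716 and 5189 scaled CPM in CD206hi, against 22.5, 21.9, 35.7, 24.7 and 83.0 in CD206neg. Tumour 11 gave the highest value in both populations, and the populations did not overlap. Its log2 fold change was 6.06 ± 0.36 (adjusted p = 4.15e-08), or 66.6-fold.

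Dcstamp (Entrez 75766, chromosome 15, 39745930 to 39760938) encodes a membrane protein needed for the fusion of osteoclasts and of macrophage giant cells. It had 38.6, 29.5, 32.1, 24.5 and 7.2 scaled CPM in CD206hi, against 671, 1610, 801, 277 and 311 in CD206neg. All CD206hi libraries lay below all CD206neg libraries, tumour 11 lowest of all. Dcstamp was thus 25.0-fold lower in CD206hi (log2 fold change -4.64 ± 0.39, adjusted p = 6.58e-07).

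**Figure D1:**
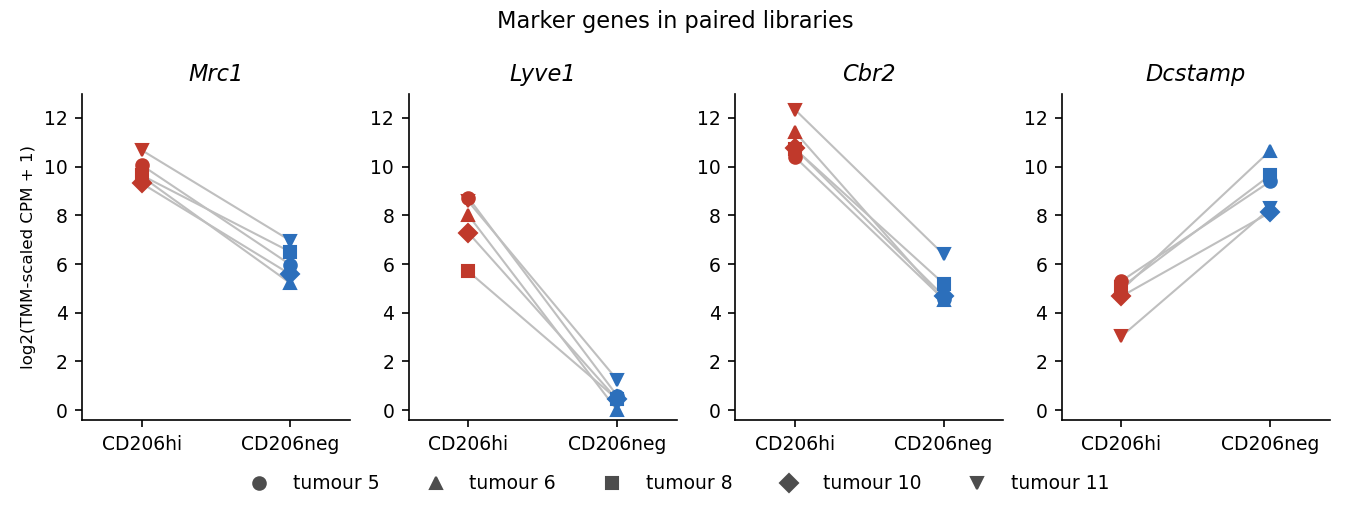
Levels of Mrc1, Lyve1, Cbr2 and Dcstamp as log2(TMM-scaled CPM + 1) in each library of CD206hi (red) and CD206neg (blue), with grey lines joining the populations of 1 tumour and a symbol for each of the 5 tumours. All lines of Mrc1, Lyve1 and Cbr2 fall towards CD206neg and all lines of Dcstamp climb towards it, with CD206hi of tumour 11 lowest for Dcstamp at 7.2 scaled CPM.

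The promoters of Mrc1 and Cbr2 are shown because both are marker genes of the CD206hi population. Each sequence runs from 250 bases before to 50 bases after a RefSeq transcript start (GRCm38.p6), on the strand of the gene. Capitals mark the letters of 4 short motifs that were searched on both strands: AGGAAGT, the core bound by the ETS factor PU.1, TGCTGAC, part of the MAF recognition element, TGAGTCA, the AP-1 site, and CACGTG, the E-box. The letters of TGAGTCA and TGCTGAC can share bases in longer sites, and none of the windows shown holds both. In the Mrc1 and Cbr2 windows the capitals are the reverse complement of AGGAAGT and of TGCTGAC. Lyve1 and Dcstamp are named only.
Mrc1, chr2:14229164-14229463, plus strand: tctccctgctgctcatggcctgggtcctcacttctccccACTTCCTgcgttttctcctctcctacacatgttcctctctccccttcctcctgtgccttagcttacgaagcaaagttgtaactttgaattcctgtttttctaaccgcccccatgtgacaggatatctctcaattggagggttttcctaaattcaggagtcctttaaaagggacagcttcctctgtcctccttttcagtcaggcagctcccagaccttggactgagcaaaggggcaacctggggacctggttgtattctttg
Cbr2, chr11:120731972-120732271, minus strand: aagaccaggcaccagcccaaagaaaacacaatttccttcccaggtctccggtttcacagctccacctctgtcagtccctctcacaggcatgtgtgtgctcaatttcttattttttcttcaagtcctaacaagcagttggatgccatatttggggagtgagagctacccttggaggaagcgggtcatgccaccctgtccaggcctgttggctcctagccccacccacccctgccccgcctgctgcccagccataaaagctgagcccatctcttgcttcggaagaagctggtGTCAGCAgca
Of 32851 promoter windows of this length, AGGAAGT occurred in 9.35%, TGCTGAC in 4.67%, TGAGTCA in 5.2% and CACGTG in 7.15%. A match describes these letters only.

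The genes of tissue-resident and perivascular macrophages rose together. Of the 27 members of this list, all tested, 26 rose in CD206hi and none fell, with a median log2 fold change of 4.38, against 0.001 over all genes tested. The list was put together with earlier results of these libraries known, so its direction is a description. It includes Mrc1, which encodes the sorted antigen, and the marker genes Lyve1 and Cbr2 described above, so their rises add no separate support. Its members summed to a median of 11150 scaled CPM in CD206hi (range 7829 to 31510), against 664.7 in CD206neg (548 to 1058). Without the CD206neg libraries of tumours 6 and 8, 25 members were called. The remaining member, Slc40a1, the iron exporter ferroportin, had 25.4 to 59.1 scaled CPM in CD206hi and 5.36 to 50.5 in CD206neg (adjusted p = 0.394).

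F13a1, the A subunit of the transglutaminase factor XIII that cross-links fibrin, had 2319, 828, 1730, 1048 and 4524 scaled CPM in CD206hi, against 52.7, 17.0, 15.7, 10.3 and 52.8 in CD206neg. The lowest CD206hi library exceeded the highest CD206neg library many times over. F13a1 was 74.1-fold higher in CD206hi (log2 fold change 6.21 ± 0.30, adjusted p = 5.84e-09). Folr2, a folate receptor of resident macrophages, had 486, 984, 538, 729 and 2219 scaled CPM in CD206hi, against 16.0, 14.3, 31.1, 43.3 and 63.5 in CD206neg. Again no library of either population reached the range of the other (log2 fold change 4.79 ± 0.34, adjusted p = 1.05e-07). The haemoglobin scavenger receptor gene Cd163 had 40.5 to 251 scaled CPM in CD206hi and 0.24 to 3.47 in CD206neg, a log2 fold change of 7.07 ± 0.46 (adjusted p = 6.18e-08) that lay between 6.38 and 7.68 when CD206neg libraries were left out singly. Ednrb, the endothelin B receptor, had 541, 336, 86.4, 179 and 1082 scaled CPM in CD206hi, against 0.815, 2.25, 0.647, 0.36 and 4.34 in CD206neg. Tumour 8 was lowest and tumour 11 highest among the CD206hi libraries (log2 fold change 8.10 ± 0.46, adjusted p = 2.7e-08).

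Timd4, the phosphatidylserine receptor TIM-4, had 14.3 to 64.9 scaled CPM in CD206hi and 0.72 to 3.24 in CD206neg (log2 fold change 3.90 ± 0.37, adjusted p = 2.22e-06, and 4.81 without the CD206neg libraries of tumours 6 and 8). Siglec1, the sialoadhesin of lymph node and bone marrow macrophages, changed less, with 85.9 to 165 scaled CPM in CD206hi and 7.57 to 40.5 in CD206neg (log2 fold change 2.58 ± 0.31, adjusted p = 2.45e-05). Stab1, a scavenger receptor of sinusoidal endothelium and macrophages, had 339 to 403 scaled CPM in CD206hi and 117 to 186 in CD206neg (1.28 ± 0.18 on the log2 scale, adjusted p = 0.000104). In both genes the populations stood clear of each other.

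The CD206hi libraries differed among themselves in the level of these genes. Among the 26 members that rose, CD206hi of tumour 11 held the highest value for 21 and CD206hi of tumour 8 the lowest for 15. The same order held over the whole comparison: of the 982 genes called higher, 559 (56.9%) had their highest CD206hi value in tumour 11 and 463 (47.1%) their lowest in tumour 8. In turn, of the 809 genes called lower, 350 (43.3%) had their lowest CD206hi value in tumour 11 and 274 (33.9%) their highest in tumour 8. These counts describe the libraries and were not tested.

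The Cd209 genes, which encode C-type lectins of the DC-SIGN family, had few or no counts in CD206neg. All 7 mouse Cd209 genes of this cluster are in the matrix. They lie on chromosome 8 between 3743395 and 4137707, a stretch of 394 kb, and 6 of them were among the 12 largest rises of the comparison. Because they are close copies of each other, reads may have been assigned to the wrong member, so single values are uncertain.

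Cd209f had 301, 819, 29.0, 192 and 2336 scaled CPM in CD206hi, against 0, 0.204, 0.185, 0.48 and 4.69 in CD206neg. Cd209g had 121, 336, 11.3, 75.4 and 705 scaled CPM in CD206hi, against 0, 0.204, 0, 0.48 and 3.47 in CD206neg. Cd209d had 168, 236, 3.05, 42.2 and 490 scaled CPM in CD206hi, against 0, 0.204, 0, 0 and 0.347 in CD206neg. In each of these genes CD206hi of tumour 11 was highest, CD206hi of tumour 8 was the lowest of its population, and the highest CD206neg value was that of tumour 11. Cd209b, a receptor of marginal zone macrophages in the spleen, had 1.96 to 298 scaled CPM in CD206hi, and in CD206neg it was at 0 in all libraries but that of tumour 11, which had 1.56. The range of Cd209a was 3.6 to 361 scaled CPM in CD206hi and 0 to 1.21 in CD206neg. For Cd209e it was 0.436 to 39.6 in CD206hi and 0 to 0.204 in CD206neg. Adjusted p-values of these 6 genes ran from 6.18e-08 for Cd209d, Cd209f and Cd209g to 2.72e-06 for Cd209e. No fold change is given for them, since the CD206neg values are at or near 0 and the fitted size depends on the prior count. The remaining gene, Cd209c, had 0.109 to 10.1 scaled CPM in CD206hi and 0 to 0.445 in CD206neg (adjusted p = 8.04e-05), and here the populations overlapped.

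The promoters of Cd209d, Cd209f and Cd209g are shown since these genes of the cluster rose together and each window holds 1 of the motifs searched. The motif is AGGAAGT in Cd209d and TGAGTCA in the others.
Cd209d, chr8:3878450-3878749, minus strand: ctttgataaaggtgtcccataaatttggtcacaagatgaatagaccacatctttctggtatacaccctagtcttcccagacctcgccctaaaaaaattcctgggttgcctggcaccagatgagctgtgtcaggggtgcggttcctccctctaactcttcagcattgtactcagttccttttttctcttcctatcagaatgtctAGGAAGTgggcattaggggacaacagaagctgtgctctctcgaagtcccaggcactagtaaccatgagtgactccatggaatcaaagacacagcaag
Cd209f, chr8:4105715-4106014, minus strand: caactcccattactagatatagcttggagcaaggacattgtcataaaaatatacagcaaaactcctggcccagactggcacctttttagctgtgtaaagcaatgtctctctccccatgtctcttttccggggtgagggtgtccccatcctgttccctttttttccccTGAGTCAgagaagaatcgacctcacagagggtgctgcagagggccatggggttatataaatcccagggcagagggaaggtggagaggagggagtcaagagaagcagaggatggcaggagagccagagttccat
Cd209g, chr8:4134486-4134785, plus strand: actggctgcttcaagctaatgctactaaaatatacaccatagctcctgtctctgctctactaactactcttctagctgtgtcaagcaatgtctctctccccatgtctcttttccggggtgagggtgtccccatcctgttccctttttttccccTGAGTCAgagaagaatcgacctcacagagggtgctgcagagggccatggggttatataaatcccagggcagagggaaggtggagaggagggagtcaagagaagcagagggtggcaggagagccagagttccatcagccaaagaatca
The Cd209f and Cd209g windows share an identical run of 180 bases that includes the TGAGTCA letters, and over 286 bases aligned without gaps 83.2% were the same. Among the 12 largest rises, 10 genes had a promoter entry, and TGAGTCA occurred in 3 of them, Cd209f, Cd209g and Entpd3. Among the 12 largest falls, 8 had an entry and 1, Cd207, held it. Over all 32851 promoter windows the share with this AP-1 site was 5.2%. The other motifs searched, those of PU.1, MAF and the E-box, each occurred in 1 of the 10 rises. These were Cd209d for PU.1 and Entpd3 for MAF and the E-box. Among the 8 falls the E-box occurred in 1, Il1r2, and the PU.1 and MAF motifs in none. The counts were not tested against the shares over all windows. The shared run of Cd209f and Cd209g means that their matches are not independent of each other.

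**Figure D2:**
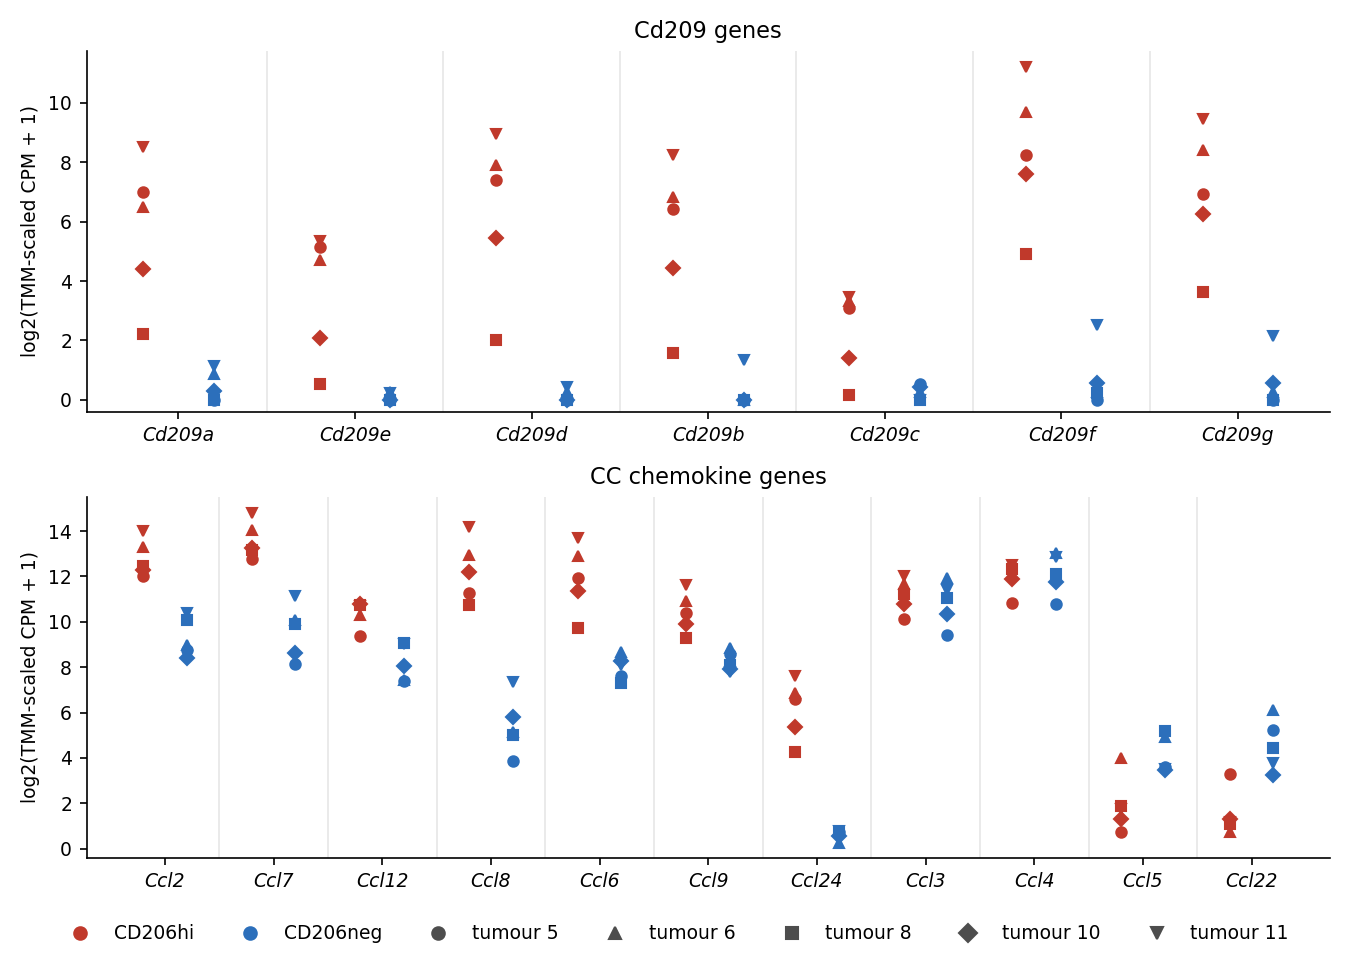
Levels of the Cd209 genes in their order on chromosome 8 and of 11 CC chemokine genes as log2(TMM-scaled CPM + 1), with 1 point per library, CD206hi (red) left of CD206neg (blue) and a symbol for each tumour. The CD206hi points of tumour 8 are lowest in every Cd209 gene, and Ccl3 and Ccl4 overlap between the populations while Ccl2, Ccl7, Ccl8, Ccl6, Ccl9 and Ccl24 do not.

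The other genes among the 12 largest rises were Entpd3, Enpep, Dnm1, Gfra2, Lyve1 and Ednrb. Entpd3, an ectonucleotidase, had 21.7, 15.5, 1.96, 9.22 and 32.7 scaled CPM in CD206hi, against 0, 0, 0, 0 and 0.174 in CD206neg. Enpep, the aminopeptidase A that cleaves angiotensin, had 1.42 to 55.6 scaled CPM in CD206hi and 0 to 0.347 in CD206neg. Gfra2, the co-receptor for neurturin, had 0.218 to 25.0 scaled CPM in CD206hi and 0 to 0.174 in CD206neg, and Dnm1, the dynamin of neurons, 1.09 to 26.6 in CD206hi and 0 to 0.12 in CD206neg. Each was lowest in CD206hi of tumour 8. All rose, with adjusted p-values of 1.4e-06 for Entpd3, 6.35e-05 for Enpep, 1.6e-06 for Gfra2 and 3.37e-06 for Dnm1, and fold changes are not given because no CD206neg library exceeded 3 counts.

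CC chemokines split into a set that rose and a set that did not. Of 13 tested members of the list, 7 rose (Ccl2, Ccl6, Ccl7, Ccl8, Ccl9, Ccl12 and Ccl24) and 2 fell (Ccl5 and Ccl22), with a median log2 fold change of 2.11. The counts were the same without the CD206neg libraries of tumours 6 and 8. Chemokines of the clustered family share similar sequences, which may blur counts between neighbours.

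Ccl8, a ligand of CCR8 in the mouse, had 2441, 7861, 1686, 4748 and 18671 scaled CPM in CD206hi, against 13.6, 34.0, 31.2, 54.9 and 160 in CD206neg. The lowest CD206hi value, in tumour 8, was above the highest CD206neg value, in tumour 11. Ccl8 was 110.2-fold higher in CD206hi (log2 fold change 6.78 ± 0.50, adjusted p = 1.34e-07). Ccl24, an eotaxin that draws eosinophils through CCR3, had 18.1 to 195 scaled CPM in CD206hi and 0.204 to 0.694 in CD206neg (log2 fold change 7.0 ± 0.44, adjusted p = 5.83e-08).

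Ccl2 and Ccl7, which draw CCR2-bearing monocytes, were high in both populations and higher in CD206hi. Ccl2 had 4177, 9922, 5567, 5006 and 16636 scaled CPM in CD206hi, against 434, 504, 1065, 342 and 1324 in CD206neg (log2 fold change 3.41 ± 0.39, adjusted p = 1.39e-05). Ccl7 had 6993, 16945, 9266, 9770 and 28357 scaled CPM in CD206hi, against 284, 1095, 946, 396 and 2218 in CD206neg (3.94 ± 0.41 on the log2 scale, adjusted p = 4.77e-06). In neither gene did the populations overlap. Ccl3 and Ccl4, which encode macrophage inflammatory proteins, overlapped: Ccl3 had 1112 to 4129 scaled CPM in CD206hi and 684 to 3914 in CD206neg, with an adjusted p of 0.483, and Ccl4 1815 to 5803 in CD206hi and 1769 to 8483 in CD206neg, with an adjusted p of 0.705. Ccl5 (RANTES), at 0.673 to 14.8 scaled CPM in CD206hi and 10.1 to 34.9 in CD206neg, fell in CD206hi (log2 fold change -2.69 ± 0.46, adjusted p = 0.000603), with a value of -3.28 without tumour 6. Without the tumour block its adjusted p was 0.072. Ccl22, a ligand of CCR4, had 0.641 to 8.76 scaled CPM in CD206hi and 8.52 to 68.1 in CD206neg (-3.35 ± 0.67, adjusted p = 0.00229), and its adjusted p was 0.0785 when tumours 6 and 8 were left out of every group.

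Among the other chemokines, 1 of 12 tested rose and 4 fell. The one that rose, Pf4 (CXCL4, known from platelet granules), had 528 to 1405 scaled CPM in CD206hi and 42.3 to 110 in CD206neg (log2 fold change 3.75 ± 0.39, adjusted p = 4.74e-06). Without tumour 8, and without either library of tumour 8, 2 members rose. Cxcl16, a membrane-bound scavenger and the ligand of CXCR6, had 542 to 965 scaled CPM in CD206hi and 1095 to 3452 in CD206neg (-1.51 ± 0.25, adjusted p = 0.000398). Cxcl14, a chemokine of epithelia, had 4.5 to 33.4 scaled CPM in CD206hi and 61.7 to 140 in CD206neg (-2.05 ± 0.34, adjusted p = 0.000461).

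Ccr2, the receptor for the Ccl2 and Ccl7 products, rose as well, with 66.2, 52.5, 73.7, 81.5 and 135 scaled CPM in CD206hi, against 7.34, 34.8, 49.6, 15.7 and 30.5 in CD206neg. The highest CD206neg values were those of tumours 8 and 6. The log2 fold change was 1.66 ± 0.33 (adjusted p = 0.00196), and 2.45 without the CD206neg libraries of tumours 6 and 8.

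Growth factors moved in both directions: of 27 tested, 6 rose and 7 fell (48.1% called), with a median log2 fold change of -0.11. Leaving out tumour 11 brought the falls to 3. Bmp2, a bone morphogenetic protein, had 108, 57.1, 11.7, 35.4 and 142 scaled CPM in CD206hi, against 0.815, 1.02, 0.0925, 0.72 and 3.64 in CD206neg. No CD206neg library reached the CD206hi libraries (log2 fold change 5.98 ± 0.44, adjusted p = 1.34e-07). Csf2, which encodes GM-CSF, the growth factor of granulocytes and macrophages, had 20.8, 86.4, 8.95, 23.1 and 44.4 scaled CPM in CD206hi, against 0.0741, 1.64, 0.185, 1.32 and 2.95 in CD206neg (5.01 ± 0.47, adjusted p = 1.95e-06). Csf2ra, the alpha chain of its receptor, went the other way, with 114 to 368 scaled CPM in CD206hi and 405 to 904 in CD206neg (-1.35 ± 0.28, adjusted p = 0.00285). Igf1, insulin-like growth factor 1, had 70.9, 108, 63.8, 56.1 and 143 scaled CPM in CD206hi, against 6.67, 2.05, 5.83, 6.0 and 15.8 in CD206neg (3.67 ± 0.33, adjusted p = 1.34e-06).

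Vegfa, the main growth factor of blood vessel endothelium, was lower in CD206hi. It had 76.0, 43.0, 37.4, 54.1 and 13.5 scaled CPM in CD206hi, against 147, 227, 80.0, 158 and 125 in CD206neg. The highest CD206hi value lay just under the lowest CD206neg value (log2 fold change -1.79 ± 0.26, adjusted p = 0.000148). The neuropilins, co-receptors for VEGF and semaphorins, rose: Nrp1 had 295 to 493 scaled CPM in CD206hi and 97.7 to 202 in CD206neg (1.38 ± 0.19, adjusted p = 9.06e-05), and Nrp2 44.2 to 99.4 in CD206hi and 26.2 to 46.4 in CD206neg (1.15 ± 0.19, adjusted p = 0.000388). Among all 32 tested cytokine and growth factor receptors 6 rose and 9 fell. The falls numbered 5 without tumour 6 or without its CD206hi library.

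Endocytic and opsonic receptor genes rose more often than they fell. Of 27 tested endocytic lectins and scavenger receptors 14 rose and 5 fell (70.4% called), with a median log2 fold change of 0.66. Many of the rises, among them Mrc1, Cd163 and Cd209 genes, also belong to the resident and perivascular list, and Mrc1 encodes the sorted antigen. The list summed to a median of 9319 scaled CPM in CD206hi, against 11940 in CD206neg, and was higher in CD206hi in 3 of 5 tumours. The falls numbered 3 without tumour 6 or its CD206hi library. Members that fell included Lgals3, galectin-3, with 498 to 1523 scaled CPM in CD206hi and 1851 to 6053 in CD206neg (-1.73 ± 0.29, adjusted p = 0.000492), and Clec7a, the beta-glucan receptor dectin-1, with 21.2 to 38.3 scaled CPM in CD206hi and 50.1 to 139 in CD206neg (-1.51 ± 0.27, adjusted p = 0.000946). Among 7 tested Fc receptor genes 3 rose and none fell. Fcgrt, the neonatal Fc receptor that rescues IgG from lysosomes, had 1046, 1784, 590, 1309 and 5252 scaled CPM in CD206hi, against 48.5, 110, 54.4, 64.7 and 106 in CD206neg. All CD206hi libraries were above all CD206neg libraries (4.37 ± 0.33, adjusted p = 1.53e-07). Fcgr2b, the inhibitory Fc gamma receptor, had 852 to 1747 scaled CPM in CD206hi and 492 to 597 in CD206neg (1.05 ± 0.21, adjusted p = 0.0023).

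Of 20 complement genes tested 7 rose and 1, Itgax, fell (40% called). Vsig4, the complement receptor CRIg of resident macrophages, had 93.6, 46.6, 55.7, 23.9 and 83.5 scaled CPM in CD206hi, against 0, 0.204, 0.0925, 1.08 and 1.39 in CD206neg. The CD206neg libraries were at or near 0, and the fitted log2 fold change of 7.19 ± 0.79 (adjusted p = 9.16e-06) lay between 6.03 without the CD206neg library of tumour 5 and 8.29 without that of tumour 10. C4b had 64.4 to 637 scaled CPM in CD206hi and 9.12 to 55.0 in CD206neg (3.53 ± 0.38, adjusted p = 7.06e-06), and reads of C4b may be shared with its near copy C4a.

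Gas6 and Pros1, genes of bridging molecules of apoptotic cell uptake, and the receptor gene Axl went opposite ways. Mfge8, C1qa, C1qb and C1qc of the same list were called in neither direction. Gas6, which links exposed phosphatidylserine to the receptors AXL and MERTK, had 710, 619, 675, 800 and 2186 scaled CPM in CD206hi, against 92.4, 63.2, 105, 120 and 145 in CD206neg. Tumour 11 stood above the other CD206hi libraries, and the populations did not overlap (3.11 ± 0.26, adjusted p = 5.14e-07). Pros1, protein S, the other ligand, had 99.4 to 293 scaled CPM in CD206hi and 44.8 to 98.9 in CD206neg (1.28 ± 0.23, adjusted p = 0.000957). Axl had 143, 86.4, 134, 154 and 84.9 scaled CPM in CD206hi, against 593, 944, 432, 464 and 761 in CD206neg. Every CD206neg library was above every CD206hi library (-2.40 ± 0.29, adjusted p = 2.55e-05). Mertk had 28.6 to 58.9 scaled CPM in CD206hi and 23.5 to 46.0 in CD206neg, with an adjusted p of 0.749. In the list as a whole 5 of 15 tested genes rose and 3 fell, and 5 fell without the CD206neg libraries of tumours 6 and 8.

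Transcription factor genes changed in part. Of 41 tested 13 rose and 4 fell (41.5% called, against 16.2% of all genes), with a median log2 fold change of 0.26. Maf, a factor of resident and self-renewing macrophages, had 79.3, 131, 68.2, 84.0 and 93.7 scaled CPM in CD206hi, against 10.2, 18, 25.9, 15 and 25.9 in CD206neg. The populations were clear of each other (2.28 ± 0.26, adjusted p = 1.2e-05). Klf4, a factor tied to alternative activation, had 23.7 to 139 scaled CPM in CD206hi and 6.57 to 18.2 in CD206neg (2.67 ± 0.28, adjusted p = 6.18e-06). Tcf4 had 87.4 to 157 scaled CPM in CD206hi and 47.3 to 59.8 in CD206neg (1.14 ± 0.15, adjusted p = 4.38e-05). The interferon regulatory factor genes Irf5 and Irf8, known for inflammatory macrophages and monocyte-derived cells, fell: Irf5 had 86.9 to 144 scaled CPM in CD206hi and 161 to 290 in CD206neg (-0.84 ± 0.18, adjusted p = 0.00361), and Irf8 121 to 212 in CD206hi and 202 to 461 in CD206neg (-0.91 ± 0.20, adjusted p = 0.00409).

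Of 17 tested genes of alternative activation 8 rose and 3 fell, the median log2 fold change being 0.91. The number of falls was 1 without tumour 6, without its CD206hi library and without the CD206neg library of tumour 10. Cd200r1, an inhibitory receptor, had 20.7 to 37.1 scaled CPM in CD206hi and 1.43 to 7.21 in CD206neg (2.54 ± 0.24, adjusted p = 2.04e-06). Retnla, the secreted resistin-like molecule alpha (FIZZ1), had 211, 415, 73.6, 154 and 2287 scaled CPM in CD206hi, against 0.148, 45.0, 27.8, 6.36 and 10.4 in CD206neg. CD206hi of tumour 11 stood far above the rest (4.85 ± 0.97, adjusted p = 0.00219, 6.92 without the CD206neg libraries of tumours 6 and 8, and between 3.88 and 6.07 with single libraries or tumours left out). Arg1, arginase 1, had 76.2, 155, 45.3, 25.8 and 8.1 scaled CPM in CD206hi, against 74.8, 10.6, 7.58, 15.2 and 21.2 in CD206neg. Its values overlapped widely, with the highest in CD206hi of tumour 6, and its log2 fold change of 0.91 ± 0.70 (adjusted p = 0.447) was 0.15 without tumour 6 and -0.26 without the CD206neg libraries of tumours 6 and 8.

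**Figure D3:**
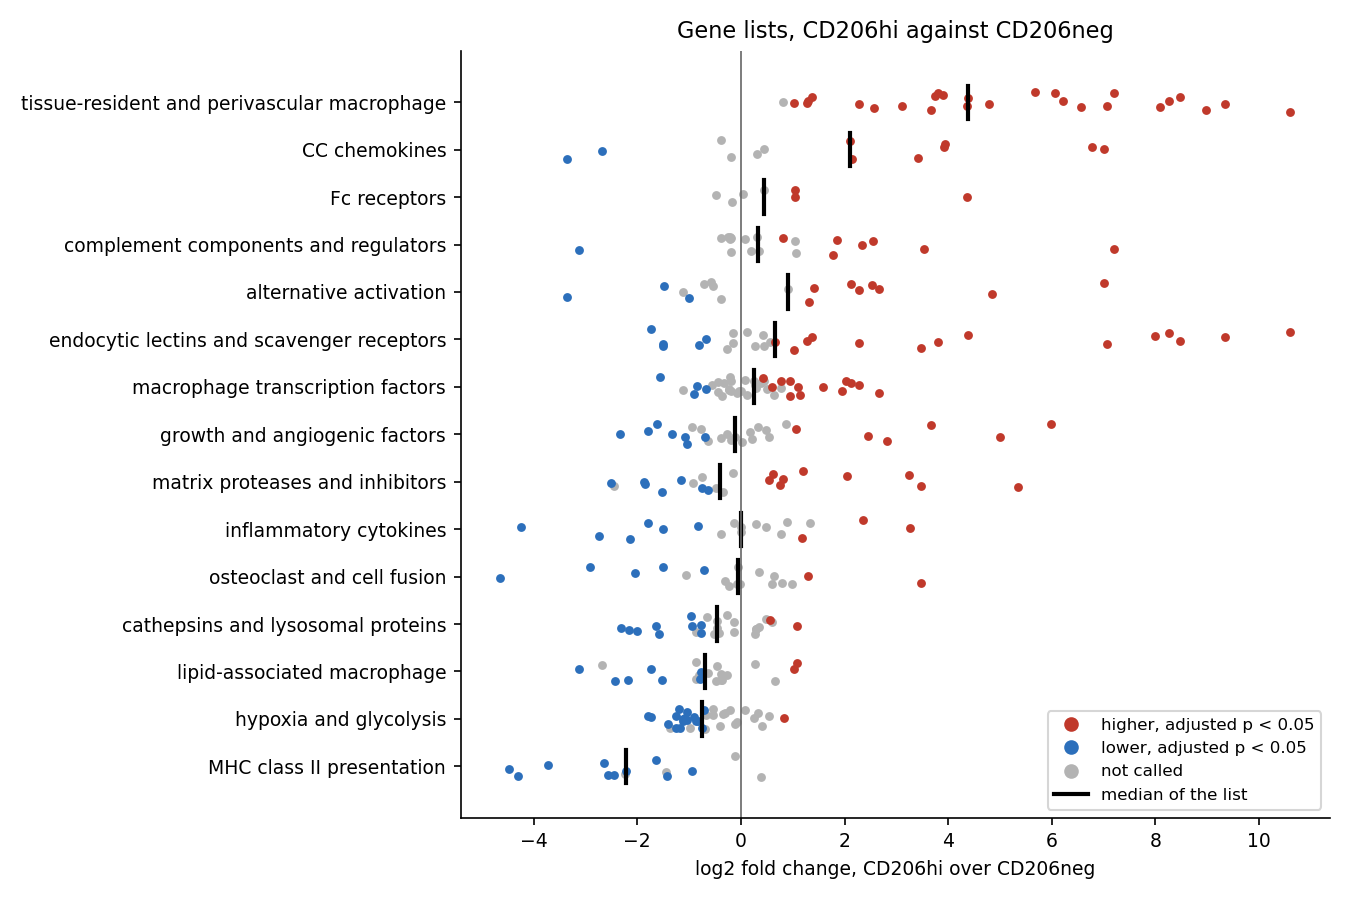
Log2 fold changes of CD206hi over CD206neg for the tested members of 15 gene lists, 1 point per gene, red where higher and blue where lower at an adjusted p under 0.05, grey where not called, with a black bar at the median of each list. The list of resident and perivascular genes has its median at 4.38 and that of MHC class II at -2.22, and the fitted size of the largest rises depends on the prior count, since these genes have few or no counts in CD206neg.

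Of 18 tested osteoclast and cell fusion genes 5 fell and 2 rose (38.9% called). Ocstamp, the partner of Dcstamp in fusion, had 2.16 to 6.31 scaled CPM in CD206hi and 16.3 to 57.9 in CD206neg (-2.91 ± 0.35, adjusted p = 2.15e-05), and Src, a kinase that osteoclasts need, 1.2 to 5.05 in CD206hi and 7.21 to 31.9 in CD206neg (-2.04 ± 0.35, adjusted p = 0.000699). Ctsk, the cathepsin with which osteoclasts resorb bone, had 0.776 to 11.7 scaled CPM in CD206hi and 0 to 5.76 in CD206neg (adjusted p = 0.721).

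Cd34, a sialomucin of progenitor cells, had 0, 1.8, 0.327, 0.582 and 0.54 scaled CPM in CD206hi, against 28.8, 27.6, 11.5, 21.3 and 10.6 in CD206neg. It was near 0 in CD206hi throughout. The log2 fold change was -5.23 ± 0.54 (adjusted p = 4.88e-06), -4.60 without tumour 5 and -6.09 without the CD206neg libraries of tumours 6 and 8. Cd207, the langerin of Langerhans cells, had 14.5, 12.4, 17.1, 3.78 and 1.259 scaled CPM in CD206hi, against 113, 458, 401, 45.0 and 86.6 in CD206neg. Its highest CD206neg libraries were those of tumours 6 and 8, and all CD206neg libraries exceeded all CD206hi libraries (-4.19 ± 0.49, adjusted p = 1.88e-05, and -4.90 without the CD206hi library of tumour 5). Il1r2, the decoy receptor of interleukin 1, had 0.899 to 8.73 scaled CPM in CD206hi and 18.1 to 123 in CD206neg (-3.86 ± 0.54, adjusted p = 9.71e-05).

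Lrrc3, which encodes a leucine-rich repeat membrane protein, had 0.18 to 1.75 scaled CPM in CD206hi and 8.3 to 32.3 in CD206neg (-4.19 ± 0.42, adjusted p = 3.47e-06). Pdcd1, the checkpoint receptor PD-1, had 0, 1.41, 4.8, 0.097 and 0.18 scaled CPM in CD206hi, against 5.78, 21.1, 19.5, 1.92 and 6.94 in CD206neg. Tumour 8 was highest in CD206hi and overlapped the CD206neg range. The log2 fold change was -3.70 ± 0.70 (adjusted p = 0.00147), -4.38 without the CD206neg libraries of tumours 6 and 8 and -4.71 without tumour 8, and the adjusted p without the tumour block was 0.0581. The gene 5430437J10Rik, named by its clone only, had 0.899 to 1.8 scaled CPM in CD206hi and 9.12 to 26.4 in CD206neg (-3.57 ± 0.32, adjusted p = 1.37e-06).

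Of 18 tested inflammatory cytokine genes 6 fell and 3 rose (50% called), with a median log2 fold change of 0.00. The list summed to a median of 9024 scaled CPM in CD206hi (range 6306 to 14860), against 21240 in CD206neg (9681 to 36850). This sum was lower in CD206hi within every tumour. Il12b, the p40 chain shared by interleukins 12 and 23, had 2.54, 1.8, 19.1, 23.0 and 3.06 scaled CPM in CD206hi, against 108, 192, 232, 108 and 141 in CD206neg. The CD206neg libraries lay close together, and the CD206hi libraries of tumours 8 and 10 were above the other CD206hi libraries (-4.24 ± 0.66, adjusted p = 0.000266, and -5.30 without the CD206hi library of tumour 10). Il1a, interleukin 1 alpha, had 1513, 853, 1813, 881 and 1352 scaled CPM in CD206hi, against 2549, 5309, 3796, 4232 and 5221 in CD206neg (-1.79 ± 0.31, adjusted p = 0.000728). Tnfsf13b, the B cell factor BAFF, had 6.48 to 13.8 scaled CPM in CD206hi and 54.2 to 96.5 in CD206neg (-2.73 ± 0.25, adjusted p = 1.49e-06). The members that rose included Osm and Lif, cytokines of the interleukin 6 family: Osm had 1109 to 2565 scaled CPM in CD206hi and 325 to 850 in CD206neg (1.18 ± 0.26, adjusted p = 0.00449), and Lif 12.4 to 59.5 in CD206hi and 4.8 to 7.77 in CD206neg (2.36 ± 0.29, adjusted p = 2.48e-05).

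Itgax, which encodes the integrin CD11c, had 13.7, 7.96, 21.6, 28.6 and 3.24 scaled CPM in CD206hi, against 107, 140, 108, 119 and 89.0 in CD206neg. The gap between the populations was wide, and CD206hi of tumour 11 was lowest (-3.13 ± 0.35, adjusted p = 1.02e-05). Itgb5, an integrin chain that binds vitronectin, had 144 to 511 scaled CPM in CD206hi and 830 to 1841 in CD206neg (-2.04 ± 0.35, adjusted p = 0.000636). In the integrin and adhesion list 7 of 22 tested genes fell and 1, Emp1, rose.

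Matrix and clotting genes split by member. Of 22 tested matrix proteases and inhibitors 9 rose and 7 fell (72.7% called). Without the CD206neg libraries of tumours 6 and 8 the falls numbered 11 and the rises 6. Timp1, an inhibitor of metalloproteinases, had 33.1, 79.6, 5.02, 22.3 and 36.2 scaled CPM in CD206hi, against 5.56, 7.57, 0.462, 1.44 and 2.95 in CD206neg. It was higher in CD206hi within each tumour, although CD206hi of tumour 8 lay within the CD206neg range (3.25 ± 0.28, adjusted p = 8.38e-07). Mmp12, the macrophage elastase, had 677, 217, 91.6, 204 and 14.0 scaled CPM in CD206hi, against 2986, 1372, 294, 1119 and 336 in CD206neg. The level varied widely between tumours in both populations, so that CD206hi of tumour 5 exceeded CD206neg of tumours 8 and 11, yet it was lower in CD206hi within every tumour (-2.51 ± 0.46, adjusted p = 0.00119). Mmp14, a membrane-bound collagenase, had 60.8 to 269 scaled CPM in CD206hi and 398 to 607 in CD206neg (-1.86 ± 0.33, adjusted p = 0.000891).

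The anticoagulant receptor genes went opposite ways. Procr, the endothelial protein C receptor, had 23.0, 32.5, 12.2, 20.8 and 4.32 scaled CPM in CD206hi, against 120, 300, 115, 125 and 89.9 in CD206neg. No CD206hi library reached the CD206neg range (-3.06 ± 0.23, adjusted p = 1.53e-07). Thbd, thrombomodulin, which binds thrombin on the cell surface, had 9.71 to 109 scaled CPM in CD206hi and 2.22 to 5.93 in CD206neg (3.31 ± 0.43, adjusted p = 4.83e-05). Plau, the urokinase plasminogen activator, had 74.8 to 96.6 scaled CPM in CD206hi and 112 to 194 in CD206neg (-0.75 ± 0.13, adjusted p = 0.000699).

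Genes of lipid-associated macrophages and of lysosomes leaned to CD206neg, with exceptions. Of 22 tested lipid-associated genes 7 fell and 2 rose, the median log2 fold change being -0.69. The falls ranged from 3 without tumour 6 to 12 without tumour 8, so the count depends on the tumours used, with 4 without tumour 5 or 11, and 12 also without the CD206neg library of tumour 8. The rises numbered 1 without tumour 6 or 11. Spp1, osteopontin, had 2489, 1469, 6962, 695 and 499 scaled CPM in CD206hi, against 8381, 6812, 5176, 2918 and 10946 in CD206neg. It was lower in CD206hi in 4 of 5 tumours, and in tumour 8 it was higher (-2.18 ± 0.51, adjusted p = 0.00681). The fold change was -1.59 without the CD206neg library of tumour 11 and -2.93 without those of tumours 6 and 8, and without the tumour block the adjusted p was 0.231. Trem2, the lipid receptor that names this state, had 288 to 779 scaled CPM in CD206hi and 352 to 1018 in CD206neg, with an adjusted p of 0.162, and the Apoe values, 16275 to 64650 in CD206hi and 20083 to 77044 in CD206neg, had one of 0.495.

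Of 26 tested cathepsins and lysosomal proteins 9 fell and 2 rose (42.3% called). The falls numbered 5 without tumour 6 or without tumour 10, and 1 rose without tumour 10 or 11. Ctsz, cathepsin Z, had 1030 to 2112 scaled CPM in CD206hi and 2173 to 8403 in CD206neg (-1.59 ± 0.28, adjusted p = 0.000847). Ctsl, cathepsin L, rose, with 289 to 1253 scaled CPM in CD206hi and 160 to 373 in CD206neg (1.08 ± 0.22, adjusted p = 0.00256), although its adjusted p was 0.0593 without the tumour block.

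Glycolysis genes were lower in CD206hi as a set of small changes. Of 35 tested genes of hypoxia and glycolysis 17 fell and 1, Pfkfb3, rose, with a median log2 fold change of -0.75. The call of Pfkfb3, a regulator of glycolytic flux, was lost without tumour 5, 6 or 11. The falls numbered 10 without tumour 11, 7 without the tumour block and 19 without the CD206neg libraries of tumours 6 and 8. The members summed to a median of 5733 scaled CPM in CD206hi (range 3431 to 9615), against 11250 in CD206neg (8760 to 16860).

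Mif, the macrophage migration inhibitory factor that hypoxia is known to induce, had 90.4, 167, 177, 146 and 43.2 scaled CPM in CD206hi, against 196, 229, 223, 442 and 220 in CD206neg. All CD206hi libraries lay below all CD206neg libraries, that of tumour 11 lowest (-1.17 ± 0.23, adjusted p = 0.00187, and 0.0548 without the tumour block). Gpi1, glucose-6-phosphate isomerase, had 115 to 250 scaled CPM in CD206hi and 236 to 430 in CD206neg (-0.83 ± 0.16, adjusted p = 0.00204). The other called members include most enzymes of the glycolytic chain, among them Gapdh, Tpi1, Pkm, Aldoa, Ldha, Eno1 and Pgk1, and the glucose transporter gene Slc2a1. Hif1a, which encodes the oxygen-regulated transcription factor itself, was among the 17 members that passed the test in neither direction.

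Of 17 tested markers of luminal epithelial cells, the tumour cells of this model, none rose or fell. Their sum was 421.8 scaled CPM in CD206hi (median, range 90.84 to 1146), against 710.7 in CD206neg (61.22 to 2047), and the ranges overlapped widely. Epcam had 3.22, 74.0, 28.3, 3.2 and 19.4 scaled CPM in CD206hi, against 24.8, 162, 7.58, 38.5 and 30.2 in CD206neg. It was higher in CD206neg in 4 of 5 tumours (adjusted p = 0.112). The part of epithelial RNA in the lower glycolysis values was not tested.

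**Figure D4:**
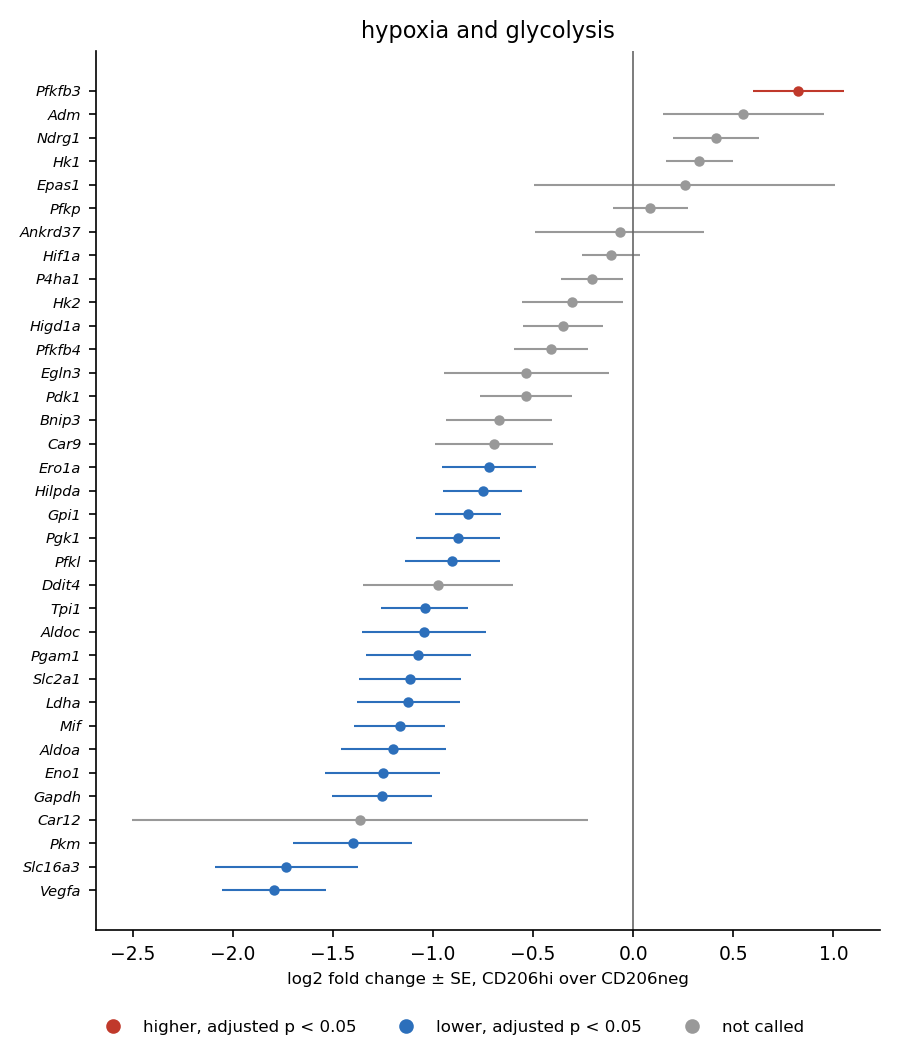
Log2 fold change of CD206hi over CD206neg with its SE for the 35 tested genes of the hypoxia and glycolysis list, blue where lower and red where higher at an adjusted p under 0.05 and grey where not called. Most genes lie below 0, with Vegfa lowest at -1.79 and Pfkfb3 the only one called higher.

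Class II genes of the MHC had lower levels in CD206hi than in CD206neg, although the labels give both populations as low for the protein. The matrix columns of CD206neg of tumours 6 and 8 carry a high class II name. Of 14 tested genes of class II presentation 10 fell and none rose, with a median log2 fold change of -2.22. The number was again 10 without the CD206neg libraries of tumours 6 and 8, and 6 when tumours 6 and 8 were left out of every group.

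H2-Aa, the alpha chain of I-A, had 10.3, 85.1, 17.5, 73.4 and 127 scaled CPM in CD206hi, 441, 7750, 1475, 4798 and 6742 in CD206pos, and 14.8, 12158, 2510, 422 and 463 in CD206neg. The CD206neg library of tumour 6 lay above every CD206pos library, that of tumour 8 lay among them, that of tumour 5 lay among the CD206hi libraries, and those of tumours 10 and 11 lay near the lowest CD206pos library. The log2 fold change of CD206hi over CD206neg was -4.47 ± 0.99 (adjusted p = 0.00455), and -1.91 (adjusted p = 0.000646) without the CD206neg libraries of tumours 6 and 8. Cd74, the invariant chain, had 239, 797, 593, 1153 and 2816 scaled CPM in CD206hi, against 1010, 72171, 16267, 7383 and 10627 in CD206neg. It was lower in CD206hi within every tumour (-3.73 ± 0.62, adjusted p = 0.000501, and -2.38 without the CD206neg libraries of tumours 6 and 8). H2-Ab1, the beta chain of I-A, had a log2 fold change of -4.30 ± 0.92 (adjusted p = 0.0035), and of -1.96 without those libraries. With single libraries or tumours left out, the value for H2-Aa lay between -5.31 and -3.21.

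The difference of CD206neg from the other macrophages between tumours 6 and 8 and tumours 5, 10 and 11 was tested directly, as 1 interaction term in the same fit. It passed for 6 genes of 11052 (0.0543%), and 442 had an unadjusted p under 0.05. All 6 were higher in CD206neg of tumours 6 and 8: H2-Aa by a log2 difference of 5.07 ± 0.49 (adjusted p = 0.000141), H2-Ab1 by 4.72 ± 0.49, H2-Ea by 4.36 ± 0.42, Ciita by 3.90 ± 0.63, H2-Eb1 by 3.31 ± 0.45 and Ccr2 by 1.86 ± 0.31 (adjusted p = 0.0392). Of these 6 genes 4 encode class II chains, and Ciita encodes the transactivator of class II genes. The tumours were split by the class II name of their CD206neg columns, so the class II calls describe that split. Ciita had 1.05, 1.8, 1.31, 1.75 and 2.34 scaled CPM in CD206hi, against 0.741, 30.9, 19.8, 2.28 and 2.43 in CD206neg. Outside tumours 6 and 8 the populations had like values of Ciita, and over all tumours its adjusted p was 0.0501 (-2.24 ± 0.74).

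**Figure D5:**
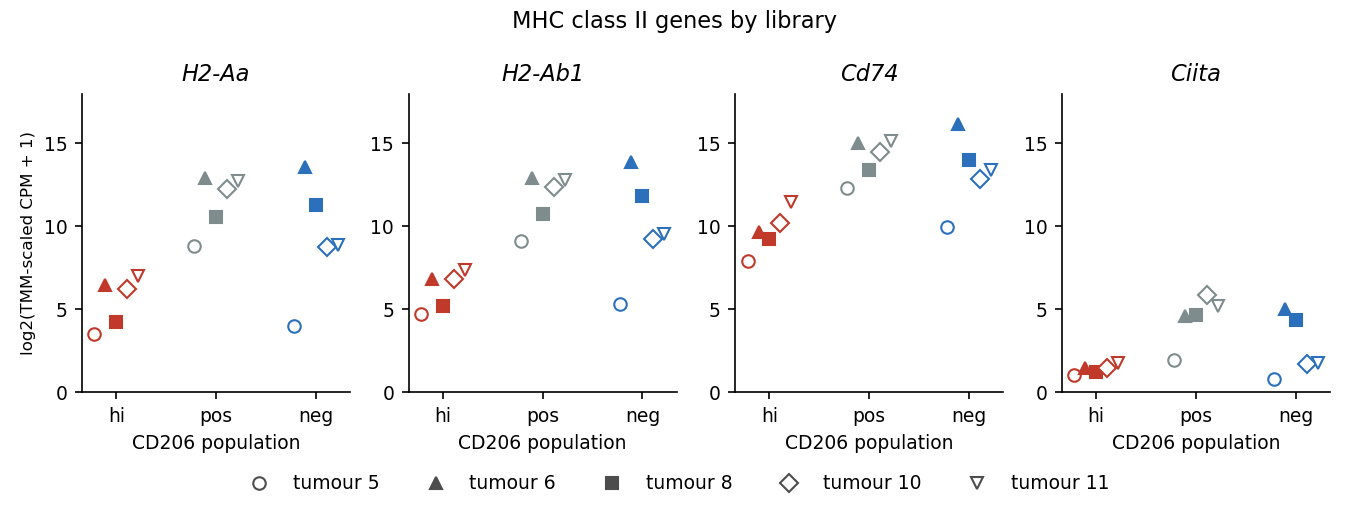
Levels of H2-Aa, H2-Ab1, Cd74 and Ciita as log2(TMM-scaled CPM + 1) in each library of CD206hi (red), CD206pos (grey) and CD206neg (blue), with filled symbols for tumours 6 and 8 and open symbols for tumours 5, 10 and 11. In CD206neg the filled symbols lie within or above the CD206pos range for all 4 genes, with H2-Aa at 12158 and 2510 scaled CPM.

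The CD206pos libraries, CD206-positive as CD206hi but high in MHC class II, were compared with each of the other populations. CD206hi and CD206pos differed in 97 genes (0.878%), and CD206pos and CD206neg in 2800 (25.3%). Both comparisons share libraries with that of CD206hi against CD206neg, so values are only set side by side. Mrc1 had 711 to 1711 scaled CPM in CD206pos, close to the range of CD206hi, and Ccl8 had 1105 to 9530. The resident and perivascular genes and the Cd209 genes had counts in CD206pos as well. Lyve1 had 438, 68.2, 41.4, 53.8 and 103 scaled CPM in CD206pos, and its difference between CD206hi and CD206pos did not pass (adjusted p = 0.133). Cbr2 had 608 to 2109 scaled CPM in CD206pos (adjusted p = 0.401 between CD206hi and CD206pos), and Cd209f had 48.1 to 647 (adjusted p = 0.652). Dcstamp had 52.0, 143, 135, 104 and 84.7 scaled CPM in CD206pos, between the other populations, and was lower in CD206hi than in CD206pos too (-2.06 ± 0.36, adjusted p = 0.00906). Of other genes that fell against CD206neg, H2-Aa was also lower in CD206hi than in CD206pos (adjusted p = 0.00316). Axl, Il1a and Vegfa did not pass there (adjusted p = 0.686, 0.944 and 0.333). The hypoxia and glycolysis list summed to a median of 4553 scaled CPM in CD206pos (range 3561 to 5199). Vsig4 had 1.64 to 63.4 scaled CPM in CD206pos, with a log2 fold change of CD206hi over CD206pos of 2.41 ± 0.54 (adjusted p = 0.0489).

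Of 23 tested haem and iron genes 7 rose and 3 fell (43.5% called). The rises numbered 4 without tumour 6 or 11, while between 0 and 5 fell as libraries were left out. Cp, the ferroxidase ceruloplasmin, had 30.9, 45.3, 30.2, 20.7 and 66.2 scaled CPM in CD206hi, against 6.0, 19.4, 2.59, 7.8 and 24.3 in CD206neg. The ranges overlapped slightly, and Cp was higher in CD206hi in every tumour (1.87 ± 0.29, adjusted p = 0.000251). Tfrc, the transferrin receptor, had 10.4 to 42.3 scaled CPM in CD206hi and 1.64 to 9.12 in CD206neg (2.09 ± 0.35, adjusted p = 0.000541). Of 25 tested cholesterol and fatty acid genes 3 rose and 2 fell (20% called, against 16.2% of all genes), with a median log2 fold change of -0.16. Pltp, the phospholipid transfer protein, had 855, 857, 563, 839 and 4677 scaled CPM in CD206hi, against 103, 148, 117, 118 and 325 in CD206neg. Tumour 11 was far above the other CD206hi libraries, and the populations did not overlap (2.90 ± 0.25, adjusted p = 8.38e-07).

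The list of TGF-beta, BMP and WNT modulators leaned the other way, with 7 of 20 tested genes falling and 2 rising, and 4 falling without tumour 6 or 11. Gdf3, a ligand of the TGF-beta family, had 4.5 to 13.2 scaled CPM in CD206hi and 25.6 to 45.5 in CD206neg (-1.82 ± 0.26, adjusted p = 0.000146). Id3, a target of BMP signalling and an inhibitor of helix-loop-helix factors, had 54.5 to 107 scaled CPM in CD206hi and 25.3 to 33.3 in CD206neg (1.59 ± 0.20, adjusted p = 4.79e-05). Of 18 tested monocyte genes 3 rose and 4 fell (38.9% called), with 1 rise left without tumour 11. Of 15 antigens described for macrophages of the mouse mammary gland and its tumours 4 rose, among them Folr2, Siglec1 and Nrp1, and 3 fell, among them Itgax and Cadm1. Cadm1, an adhesion molecule of cross-presenting dendritic cells, had 30.04 to 128 scaled CPM in CD206hi and 245 to 306 in CD206neg (-2.07 ± 0.25, adjusted p = 2.15e-05).

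Other lists gave fewer or less stable calls, to be read against 8.89% of all genes higher and 7.32% lower. In the interferon response list 4 of 32 tested genes rose and 4 fell, one of those that rose being Ifitm3, with 224 to 1652 scaled CPM in CD206hi and 59.8 to 160 in CD206neg (2.59 ± 0.36, adjusted p = 9.32e-05). Of 29 innate sensors and adaptors 6 rose and 4 fell, and without tumour 6 or tumour 11 only 1 fell. Of 20 immune checkpoint and adenosine genes 3 rose and 5 fell, and one of those that fell, Havcr2 (TIM-3), had 17.8 to 108 scaled CPM in CD206hi and 164 to 221 in CD206neg (-1.98 ± 0.33, adjusted p = 0.00046). Without tumour 6 or tumour 11 the falls numbered 3. Immediate early genes, which respond to cell dissociation, rose in 6 of 23 cases, in 2 without tumour 11 or without the tumour block, and in 3 without tumour 5, 8 or 10. Of 38 cell cycle genes 4 fell and none rose (10.5% called), and between 0 and 11 fell as single libraries or tumours were left out.

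Markers of other cell types were called in some lists and not in others. The endothelial list of 5 tested genes, the fibroblast and mural list of 11 and the myoepithelial list of 3 had no call in either direction. The endothelial sum was 6.982 to 14.11 scaled CPM in CD206hi and 6.077 to 16.57 in CD206neg. Of 4 tested T and NK cell genes, Il7r and Cd5 fell, with Il7r at 1.62 to 8.38 scaled CPM in CD206hi and 34.5 to 76.3 in CD206neg (-3.32 ± 0.27, adjusted p = 5.26e-07). The CD3 complex genes Cd3d, Cd3e, Cd3g and Cd247 were looked for and are not in the matrix. Of 8 tested dendritic cell genes 1 was called higher, Cd209a, and 3 lower, Ccr7, Sirpb1a and Siglech, of which the last 2 were not followed over libraries left out. Of 6 tested neutrophil genes 2 fell, Il1r2 and Trem1, and the sum over that list was 78.2 to 294.1 scaled CPM in CD206hi and 113.7 to 610.4 in CD206neg. The mast cell genes Tpsb2 and Cma1, neither of them tested, had at most 3.21 and 1.54 scaled CPM in CD206hi, and in CD206neg they had 51.9 and 49.2 in tumour 5 and at most 2.28 and 0.72 in the other tumours. The haemoglobin genes Hbb-bs and Hba-a2 rose, calls that several sets of libraries did not keep, with the most Hbb-bs reads in tumour 6 of both populations, at 44.3 scaled CPM in CD206hi and 18.4 in CD206neg. The part of these other cells in the results above was not tested.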

How the data were processed

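RNA-seq of sorted macrophages was analysed from the authors' deposited matrix of raw gene counts (14118 genes). Per the submitters' processing notes, the tools included Trimmomatic 0.36, HISAT2 2.0.4, SAMtools 1.3.1 and DESeq2 1.26 (counter, annotation and strand setting not given in the sources used here). Also deposited by the authors were DESeq2-normalised counts (a signal: counts divided by a size factor per library), which were used for an alternative only. Groups were taken from the sample labels. The values of 10 libraries were tested with edgeR 4.0.16 in R 4.3.3 (TMM factors, filterByExpr, quasi-likelihood F test) in a fit of 15 macrophage libraries with tumour and population as terms and Benjamini-Hochberg adjustment at 0.05. Levels are TMM-scaled CPM. The tumour is a block because same-numbered samples came from the same animal; their residuals correlated with r between 0.182 and 0.412 in the 5 tumours. Floors of 3 counts cover counting error only.

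Genes were named by rule: the markers and gate genes, the 12 largest rises and falls (mean of at least 10 scaled CPM in the higher group, 5 of 5 tumours), up to 3 called genes per list and direction (mean of at least 5 scaled CPM), 2 genes per list of another cell type, and 5 genes of the difference between tumours. Ccl2, Ccl7, Ccl9, Ccl12, Cd209c, Retnla, Spp1, Cd5, Epcam, Sirpb1a, Siglech, the called glycolysis genes beyond Vegfa, Mif and Gpi1, and Ccr2 as a gene of that difference were chosen after their values were seen. The members and the 44 gene lists were chosen with earlier results of these data known. Alternatives were other normalisations, filters and tests (limma 3.58.1, DESeq2 1.42.0), the fit without the block and fits without libraries or tumours. Promoters came from RefSeq. Sorted non-macrophage populations were not used here, and results of some genes are not reported here.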

Additional observations from a re-analysis of the deposited data

Results flagged for a closer look

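In 6 of 86 groups examined, each the values of 1 gene in 1 population, a single library stood far from the other 4. Values were compared on the log2(scaled CPM + 1) scale. Chance gives about 1 in 20 groups, so some of the 6 may be chance. In CD206hi, the library of tumour 11 had 7.196 scaled CPM of Dcstamp, against 24.55 to 38.61 in the others, and 2186 of Gas6, against 618.6 to 800 in the others. In CD206neg, the library of tumour 11 had 4.686 scaled CPM of Cd209f, with 0 to 0.4802 in the others, 3.471 of Cd209g, with 0 to 0.4802 in the others, and 1.562 of Cd209b, with 0 in the others. The CD206neg library of tumour 6 had 299.7 scaled CPM of Procr, against 89.91 to 125 in the others. So 5 of the 6 came from tumour 11. The Cd209 flags are of 1 library and of genes whose reads may be shared, so they are not independent. For Cd209b the rule flags any value above 3 counts, since the other libraries are at 0.

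The contrast of CD206neg with the other macrophages differed between tumours 6 and 8 and tumours 5, 10 and 11 for 6 genes, by edgeR's test of the interaction term. The log2 differences were 5.065 ± 0.488 for H2-Aa (adjusted p = 0.000141), 4.721 ± 0.488 for H2-Ab1 (0.000241), 4.359 ± 0.415 for H2-Ea (0.000141), 3.897 ± 0.629 for Ciita (0.0349), 3.308 ± 0.451 for H2-Eb1 (0.00612) and 1.859 ± 0.308 for Ccr2 (0.0392). In the matrix the columns of these 2 CD206neg libraries carry a high class II name, which their labels contradict. The tumours were split by that name, so the class II calls describe the split. The part of the sort gate in the class II levels was not tested.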

How the results depend on the processing

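The 1791 calls (982 higher, 809 lower, 983 of at least 2-fold) kept their counts within 1.5 times under 8 of the alternatives: the 10 libraries alone, DESeq2, RLE factors, no filter, the stricter filter, the robust fit, limma on the normalised values and the fit without the CD206neg libraries of tumours 6 and 8. Without the replicate block 1110 genes were called, 431 of them lower. Without tumours 6 and 8 the calls were 1189, with 509 lower; the alternative has fewer samples. A test against a 2-fold change gave 391 calls, 269 higher and 122 lower, by its stricter construction. Voom with quality weights gave 2768, 1478 higher and 1290 lower, and the cause was not tested. With single libraries or tumours left out, calls ranged from 985 to 2136, higher calls from 566 to 1059, lower calls from 419 to 1077 and 2-fold calls from 721 to 1168; all 4 minima came without tumour 11 and all 4 maxima without the CD206neg library of tumour 8.

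The 6 genes that differed between tumours 6 and 8 and the other tumours became 0 without the replicate block (138 at an unadjusted p under 0.05), 10 with no filter, 3 with the 10 libraries alone, 23 with DESeq2, and 3 to 16 with single CD206neg libraries left out. The sign reversed for Arg1 (-0.26 without the CD206neg libraries of tumours 6 and 8, -0.20 without tumours 6 and 8) and for Ciita (0.022 without tumours 6 and 8), neither of them called. Of 187 genes followed over 27 settings, 5038 comparisons left 4625 on the same side of the threshold in the same direction, 396 past it no longer, 14 newly past it and 3 reversed, and 90 of 180 called genes were called in every setting that kept them among the genes tested.

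With 8 residual degrees of freedom and 5 tumours, small changes of variable genes are beyond reach, and levels under 0.222 to 0.614 scaled CPM rest on 3 counts or fewer. Fitted folds of genes near 0 in CD206neg depend on the prior count. Counting over paralogues and over antisense partners may blur single values.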
